A study of Homo sapiens with 6 samples.

Results

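Caco-2 cells transformed with Ha-RAS were compared directly with Caco-2 cells transformed with Ki-RAS. Caco-2 is an established human colon adenocarcinoma line whose cells form an epithelial sheet resembling the absorptive lining of the gut. The comparison used 4 of the 6 arrays of the series: 2 of the Ha-RAS line CacoH2 (replicates A and B) and 2 of the Ki-RAS line CacoK15 (A and B). The other 2 arrays, of control Caco-2 cells, were left out of the main tests and are given beside the results as background. They entered only an alternative fit that used all 6 arrays and the placing of control levels beside both lines. All cells were untreated and were harvested before confluence, and the design text calls the samples of a line biological replicates. The Ki-RAS samples are labelled as fast growing, as is Ha-RAS replicate B, for which alone the labels add an epithelial-to-mesenchymal transition (EMT) phenotype. The RAS allele, the promoter driving it and the way the lines were selected are not given in the sources used here. Each isoform is represented by 1 line, so an effect of the RAS isoform and a difference between lines cannot be told apart, and the p-values measure only the spread between samples of a line.

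RAS proteins are small GTPases that switch on growth signalling, among others through the RAF-MEK-ERK kinases and PI3K, when bound to GTP. Ha-RAS and Ki-RAS share their GTP-binding core and differ mainly at the tail that anchors them to membranes. In an EMT, epithelial cells lose the cadherin junctions that hold a sheet together and take up vimentin filaments, matrix proteins and proteases typical of motile cells.

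Each array held 24350 probes named by the GI number of a sequence record. A probe counted as detected on an array at a detection score of at least 0.99, and a probe was tested where Ha-RAS A and B, or Ki-RAS A and B, both detected it (10346). The Ha-RAS arrays detected 10092 and 10192 probes and the Ki-RAS arrays 9423 and 9528. Each signal was a mean over a median of 41 or 42 beads. The files do not pair probes with genes. Gene names below were assigned from RefSeq GI numbers known as background, of which 55 of 92 were on the array, and could not be checked against a table, so each is given with its probe ID. Signals are deposited intensities. Differences are Ha-RAS minus Ki-RAS in normalized log2 intensity, with the standard error (SE) and n = 2 arrays per line. A probe is called at a Benjamini-Hochberg adjusted p below 0.05 in limma.

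Several genes that mark an EMT were among the probes with the widest differences, though 19 of the 24 most extreme probes carry no gene name here. VIM, which encodes the intermediate filament of mesenchymal cells, and S100A4, a calcium-binding protein of motile cells, were bright in Ha-RAS cells and at background in Ki-RAS cells. CDH1 (E-cadherin), the adhesion protein of epithelial junctions, had the opposite pattern. A bulk signal cannot tell fewer expressing cells from less RNA per cell.

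The VIM probe (GI_4507894-S) gave signals of 7912 and 7409 on the Ha-RAS arrays, 75.0 and 75.6 on the Ki-RAS arrays and 65.0 and 63.5 on the control arrays. It was detected on both Ha-RAS arrays and on no other array. The difference of 8.08 ± 0.14 (adjusted p = 3.02e-07) was the highest of the comparison, and corresponded to an intensity at least 194-fold higher in Ha-RAS cells after background correction. A fold written "at least" sets the brighter line against the lowest normalized intensity that counted as detected, because neither array of the dimmer line detected the probe. It is a bound on the corrected scale and not on the deposited signals, which include the background. The fitted fold of VIM without background correction was 92.7, and for other probes that value is given beside the corrected one where they differ by over 1.5 times, as the uncorrected fold.

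S100A4 was read by 2 probes with the next highest differences. The probe for 1 isoform (GI_9845514-I) gave 9302 and 7527 in Ha-RAS cells, 84.0 and 86.6 in Ki-RAS cells and 192.8 and 458.5 in control cells. Only 1 of the 2 Ki-RAS arrays detected it, and the fitted 209-fold difference between the RAS lines was 86.5-fold uncorrected. The probe for all isoforms (GI_9845515-A) gave 6518 and 5561 against 82.6 and 73.9, at least 149-fold (68.1 uncorrected), with 392.1 and 329.4 in control cells. Control cells thus lay above the Ki-RAS cells on both probes, and the Ha-RAS cells above both.

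The promoters of these 2 genes are printed because their transcripts had the highest differences. Each runs over the 250 bases before the RefSeq gene start, on the gene's strand. Capitals mark CACCTG, an E-box form bound by the EMT repressors of the SNAIL and ZEB families, searched on both strands. The motif was found 1 time before S100A4, 164 bases before the start, and 0 times before VIM. Of 35116 RefSeq promoters cut to the same 250 bases, 17.5% hold it. A match is a description of the letters and not of binding. VIM lies at chr10:17227991-17228240 (+ strand) and S100A4 at chr1:153545807-153546056 (- strand) of GRCh38.p14.
VIM: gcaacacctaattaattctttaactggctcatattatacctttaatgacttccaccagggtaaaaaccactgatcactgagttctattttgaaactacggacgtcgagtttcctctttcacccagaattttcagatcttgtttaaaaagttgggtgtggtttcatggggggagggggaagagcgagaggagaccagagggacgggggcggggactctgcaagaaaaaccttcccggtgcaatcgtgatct
S100A4: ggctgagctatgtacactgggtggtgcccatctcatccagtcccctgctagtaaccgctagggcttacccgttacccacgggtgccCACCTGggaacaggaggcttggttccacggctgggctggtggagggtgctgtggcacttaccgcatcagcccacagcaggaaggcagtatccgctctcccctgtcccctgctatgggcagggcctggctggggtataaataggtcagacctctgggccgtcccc

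**Figure D1:**
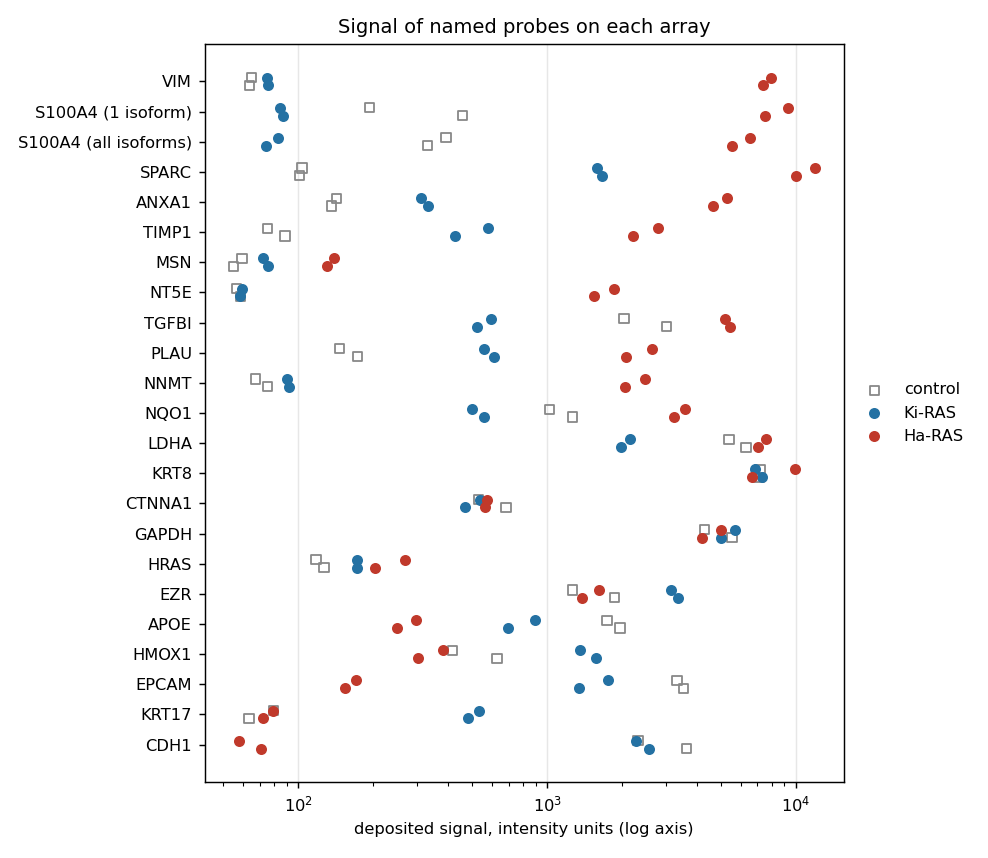
Deposited signal (log axis, intensity units) of named genes on each array, with Ha-RAS arrays in red, Ki-RAS arrays in blue and control arrays as open squares, and 1 point per array. The Ha-RAS points of VIM lie at 7912 and 7409 against 75.0 and 75.6 in Ki-RAS cells, and those of CDH1 at 57.8 and 70.5 against 2278 and 2573, while KRT8 points of all 3 groups lie together.

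The other members of the mesenchymal and invasive list were higher in Ha-RAS cells too. Of its 7 probes (6 genes), VIM, both S100A4 probes and MSN were tested only because the Ha-RAS arrays detected them, so a count over all 7 supports nothing. The other 3, detected on all 4 arrays, were each called higher, where 33.9% of all tested probes were. The list was chosen with earlier results of these data known and is not independent evidence of its direction. SPARC, a matrix glycoprotein (GI_4507170-S), gave 11882 and 9998 in Ha-RAS cells, 1591 and 1656 in Ki-RAS cells and 103.5 and 101.3 in control cells. It was thus bright in both RAS lines, and 5.77-fold higher in Ha-RAS cells (2.53 ± 0.13, adjusted p = 5.65e-06). TIMP1, an inhibitor of matrix metalloproteinases (GI_4507508-S), followed the same order with 2781 and 2217, then 578.1 and 426.0, then 75.3 and 88.4, and was 4.37-fold higher in Ha-RAS than in Ki-RAS cells. ANXA1, a phospholipid-binding annexin (GI_4502100-S), gave 5284 and 4642 against 310.9 and 333.1, a 14.6-fold difference, with 142.7 and 136.3 in control cells.

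MSN (moesin) and EZR (ezrin), related linkers between actin and the plasma membrane, differed in opposite directions. MSN (GI_4505256-S) was dim everywhere, with 139.6 and 130.1 in Ha-RAS cells and no detection on the Ki-RAS arrays (72.1 and 75.5), and was at least 1.99-fold higher in Ha-RAS cells (1.66 uncorrected). EZR (GI_21614498-S), the form typical of epithelia, gave 1612 and 1381 in Ha-RAS cells and 3136 and 3370 in Ki-RAS cells, 2.69-fold lower in Ha-RAS cells (-1.43 ± 0.13, adjusted p = 8.90e-05). Its control signals of 1267 and 1866 overlapped those of the Ha-RAS cells.

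Among epithelial genes, the 2 adhesion proteins of the cell surface were far lower in Ha-RAS cells. CDH1 (GI_14589887-S), a gene named after its values were seen, gave 57.8 and 70.5 in Ha-RAS cells, 2278 and 2573 in Ki-RAS cells and 2317 and 3623 in control cells. It was undetected on both Ha-RAS arrays, and its difference of -6.97 ± 0.15 (adjusted p = 3.03e-07) meant a corrected intensity at least 80.5-fold lower (41.8 uncorrected). EPCAM, an epithelial adhesion molecule (GI_4505058-S), remained detected at 170.1 and 154.3 in Ha-RAS cells against 1759 and 1342 in Ki-RAS cells, 17.0-fold lower (-4.08 ± 0.17), with 3327 and 3546 in control cells. CDH2 (N-cadherin, GI_14589888-S), the cadherin often gained in an EMT, was detected on 0 of the 6 arrays.

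KRT8 and CTNNA1 of the epithelial list did not pass the test, and VIL1 could not be tested. KRT8, a keratin of simple epithelia (GI_4504918-S), gave 9876 and 6672 in Ha-RAS cells and 6856 and 7325 in Ki-RAS cells, with overlapping lines (-0.06 ± 0.16, adjusted p = 0.763). CTNNA1 (alpha-catenin, GI_4503126-S), which ties cadherins to actin, differed by -0.16 ± 0.15 (adjusted p = 0.375). Both small differences turned positive under a common-median scaling. VIL1 (villin, GI_6005943-S), of the microvilli, was detected in control cells at 219.8 and 274.9 and on no array of either RAS line. Of the 4 tested probes of the list, EPCAM and EZR were called, both lower in Ha-RAS cells, where 30.1% of all tested probes were called lower.

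Beside CDH1, 8 probes of a list of adhesion and cytoskeletal genes, added after results were seen, were tested. Of these 3 were called higher and 3 lower in Ha-RAS cells, against 33.9% and 30.1% of all tested probes, and KRT17 was tested only because the Ki-RAS arrays detected it. KRT17, a keratin of basal and injured epithelia (GI_4557700-S), was detected in Ki-RAS cells alone, at 530.3 and 480.4 against 78.9 and 72.0 in Ha-RAS and 79.2 and 63.3 in control cells, a corrected intensity at least 15.9-fold above that of Ha-RAS cells (7.61 uncorrected). CNN3, an actin-binding calponin (GI_4502922-S), was 3.35-fold higher in Ha-RAS cells, and PLS1, an actin bundler of microvilli (GI_4505896-S), 1.78-fold higher. TAGLN2, a transgelin (GI_4507356-S), was 1.93-fold lower. CAPG, an actin-capping protein (GI_4502560-S), was 1.48-fold lower, a call lost under a common-median scaling (adjusted p = 0.214). DSP, the desmosomal desmoplakin (GI_4758199-S), was dim and 1.66-fold higher, a call lost without Ha-RAS replicate A (adjusted p = 0.0573), as that of CAPG was without replicate B (0.09997). The abundant actin regulators FLNA (filamin A, GI_4503744-S) and CFL1 (cofilin, GI_5031634-S) differed by -0.23 ± 0.13 and -0.17 ± 0.15 and were not called, although FLNA was with a spread that followed the intensity (adjusted p = 0.0362).

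Several secreted and surface proteins were higher in Ha-RAS cells, unlike CDH1, EPCAM and the secreted APOE described below. They form a list of 7 tested probes added after results were seen, of which NT5E, CTGF and DKK1 were tested only because the Ha-RAS arrays detected them. The other 4 were each called higher, where 33.9% of all tested probes were, and this choice of genes makes the count no evidence of a direction. The brush border peptidase ANPEP (GI_4502094-S) was detected on no array and was not tested. NT5E (CD73, GI_4505466-S), the surface enzyme that makes adenosine from AMP, gave 1854 and 1543 in Ha-RAS cells and was undetected elsewhere, with 59.3 and 58.3 in Ki-RAS and 56.5 and 58.7 in control cells, at least 41.4-fold higher (26.02 uncorrected). It was named after its values were seen. TGFBI, a matrix protein induced by TGF-beta (GI_4507466-S), gave 5206 and 5444 against 594.4 and 523.1, an 8.42-fold difference, and lay between them in control cells at 2038 and 3019. PLAU, the urokinase plasminogen activator (GI_4505862-S), gave 2633 and 2071 against 555.2 and 610.2, with 146.4 and 172.8 in control cells, and was 3.43-fold higher in Ha-RAS than in Ki-RAS cells.

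DKK1, a secreted inhibitor of WNT signalling (GI_7110718-S), was brightest in neither RAS line. It gave 424.3 and 415.5 in Ha-RAS cells, 94.6 and 75.1 in Ki-RAS cells and 6822 and 7408 in control cells, so that both RAS lines lay far below control. Only 1 Ki-RAS array detected it, and the fitted 9.27-fold difference between the RAS lines was 4.32-fold uncorrected. CTGF, a matricellular protein (GI_4503122-S), was undetected in Ki-RAS cells and at least 5.58-fold higher in Ha-RAS cells (3.43 uncorrected), and LGALS3 (galectin 3, GI_4504982-S) was 4.17-fold higher, both with control signals above those of Ha-RAS cells. DPP4, a brush border peptidase (GI_18765693-S), had the smallest called difference of the list (0.47 ± 0.15, adjusted p = 0.0267), with signals of 110.6 and 115.5 against 84.0 and 89.3. This call was lost without background correction (adjusted p = 0.0885), with an offset of 50 (0.0583), with cyclic loess (0.0559) and without the detection filter (0.0541). It was also lost without Ha-RAS replicate B (difference 0.32) or Ki-RAS replicate A (0.44).

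Enzymes of detoxification and stress responses, also a list added after results were seen, went both ways, with 2 of the 4 probes detected on all 4 arrays called higher and 1 lower, against 33.9% and 30.1% of all tested probes. NNMT, which methylates nicotinamide (GI_5453789-S) and was named after its values were seen, gave 2479 and 2051 in Ha-RAS cells and 90.2 and 92.1 in Ki-RAS cells, a 45.2-fold difference (5.50 ± 0.13, 21.2-fold uncorrected). Both Ki-RAS arrays detected it, while neither control array did. NQO1, a quinone reductase under NRF2 control (GI_4505414-S), was 5.77-fold higher in Ha-RAS cells, with 3597 and 3246 against 499.3 and 555.6. HMOX1, the heme oxygenase induced by oxidative stress and also an NRF2 target (GI_4504436-S), was 6.17-fold lower in Ha-RAS cells, with 381.3 and 301.4 against 1351 and 1578, and its control signals were 417.2 and 628.7. CA2, a carbonic anhydrase (GI_4557394-S), was detected on 1 Ki-RAS array and 6.35-fold higher in Ha-RAS cells (3.26 uncorrected), and UGDH, which makes UDP-glucuronate (GI_4507812-S), was not called (0.13 ± 0.13) except with a common median or no normalization (adjusted p = 0.0297 and 0.0181).

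The hepatocyte-like and enterocyte-like secretory genes that Caco-2 cells express were mostly undetected in both RAS lines. Of 11 probes for apolipoproteins, other plasma proteins and intestinal fatty acid-binding proteins, 9 were undetected on all 4 RAS arrays, and 8 of these were detected on both control arrays. APOA1, the main protein of high-density lipoprotein (GI_4557320-S), gave 6282 and 8974 in control cells against 76.2 and 78.2 in Ha-RAS and 74.1 and 73.9 in Ki-RAS cells. No fold between the RAS lines can be given for these. APOE (GI_4557324-S), the exception among the apolipoproteins, stayed detected in both lines at 297.9 and 248.9 in Ha-RAS and 894.6 and 699.2 in Ki-RAS cells, and was 4.26-fold lower in Ha-RAS cells (-2.09 ± 0.17). FABP1 (GI_4557576-S) was detected in Ha-RAS cells just above background (98.8 and 85.0) and did not differ in the test (adjusted p = 0.238). Of the epithelial and intestinal genes named above, VIL1 and APOA1 were detected in control cells and absent at this detection limit from both RAS lines. KRT8, EPCAM and DPP4 stayed detected on all 4 arrays, and FABP1 on both Ha-RAS arrays. Both DPP4 and FABP1 were dim in the RAS lines, against 1088 and 1388 for DPP4 and 905.0 and 1350 for FABP1 in control cells.

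In the list of annexins, S100 proteins and fatty acid-binding FABP5, 1 of 5 tested probes was called, where 64% of all tested probes were. ANXA3 (GI_4826642-S) was 2.28-fold lower in Ha-RAS cells. ANXA2 (GI_4757755-S) differed by -0.03 ± 0.15 and its partner S100A10 (GI_4506760-S) by 0.25 ± 0.13, with all signals between 3395 and 8955. The S100A10 difference was called under a common-median scaling (0.48, adjusted p = 0.0204) and without normalization (0.53, adjusted p = 0.0104). At its main value of 0.25 it was also called with a spread that followed the intensity (adjusted p = 0.0253). LDHA, the lactate-forming dehydrogenase (GI_5031856-S), was 3.02-fold higher in Ha-RAS cells, at 7564 and 7052 against 2159 and 1986, and the Ki-RAS signals lay below the control signals of 5390 and 6299. GAPDH (GI_7669491-S), an earlier step of glycolysis, was 1.40-fold lower (-0.49 ± 0.14, adjusted p = 0.0206), a call lost under a common-median scaling (-0.27, adjusted p = 0.184) and without either Ha-RAS array (adjusted p = 0.0792 without A and 0.117 without B) or Ki-RAS replicate A (0.0863).

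The HRAS probe (GI_4885424-A) gave 267.8 and 203.0 in Ha-RAS cells, 172.6 and 172.2 in Ki-RAS cells and 117.7 and 126.9 in control cells. The lines did not overlap in deposited signal, but the difference of 0.20 ± 0.16 was not called (adjusted p = 0.312). Under a common-median scaling it was 0.52 and was called (adjusted p = 0.0154). Whether this probe reads the introduced RAS transcript is not known, so it does not check the labels.

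**Figure D2:**
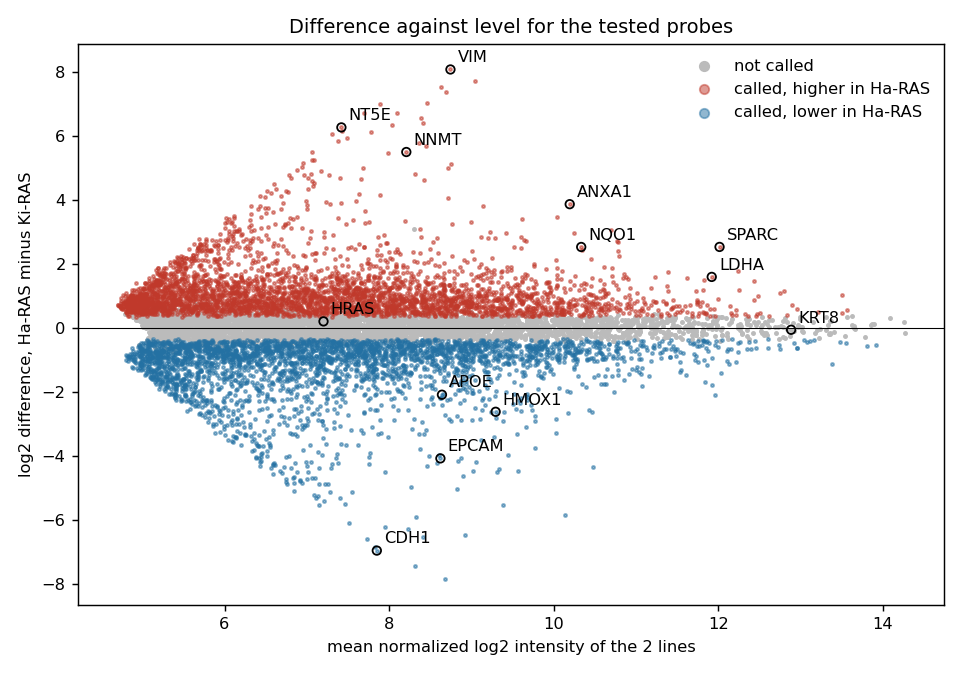
Difference in normalized log2 intensity, Ha-RAS minus Ki-RAS (vertical axis), against the mean log2 intensity of both lines (horizontal axis), with 1 point per tested probe and 13 named genes circled. Called probes lie on both sides of 0 across the range of levels, VIM is highest at 8.08, and CDH1 lies near the lower edge at -6.97.

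Across the array, differences between the lines were the rule. Of 10346 tested probes, 6624 (64%) were called, 3505 higher (33.9%) and 3119 lower (30.1%) in Ha-RAS cells, and 6986 had an unadjusted p below 0.05. The median called difference was 0.91 against a median SE of 0.15. Normalized values of the lines did not overlap for 8538 probes (82.5%). Replicates of a line correlated at r = 0.992 (Ha-RAS) and 0.989 (Ki-RAS), taken over probes that are not independent replicates, and arrays of different lines at 0.800 to 0.810. The balance of directions depended on the scaling. The share of calls that were higher in Ha-RAS cells was 52.9% after quantile normalization, 49.7% with cyclic loess, 68.4% with a common median and 70.9% without normalization, where the median of all tested probes shifted to 0.34 and 0.39 in the last 2. The Ha-RAS arrays were also the brighter ones, with median detected signals of 236.9 and 214.8 against 205.7 and 201.4, and the part of this in the split was not tested.

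Differences of at least 2-fold were found for 2890 called probes (27.9%), 1489 higher and 1401 lower, and 143 reached 16-fold (1.38%), with 57 in the Ha-RAS and 86 in the Ki-RAS direction. Above 64-fold 15 probes were higher and 10 lower. Among probes detected on all 4 arrays, where both lines had a measured level, 8 were at least 16-fold higher and 25 lower. The balance of directions moved with the scaling here too. At 2-fold the higher and lower counts were 1305 and 1541 with cyclic loess, 2235 and 1030 with a common median and 2430 and 977 without normalization. At 16-fold the 57 and 86 became 52 and 99, 66 and 71, and 69 and 66 under the same settings, and 23 and 21 when no background was removed.

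**Figure D3:**
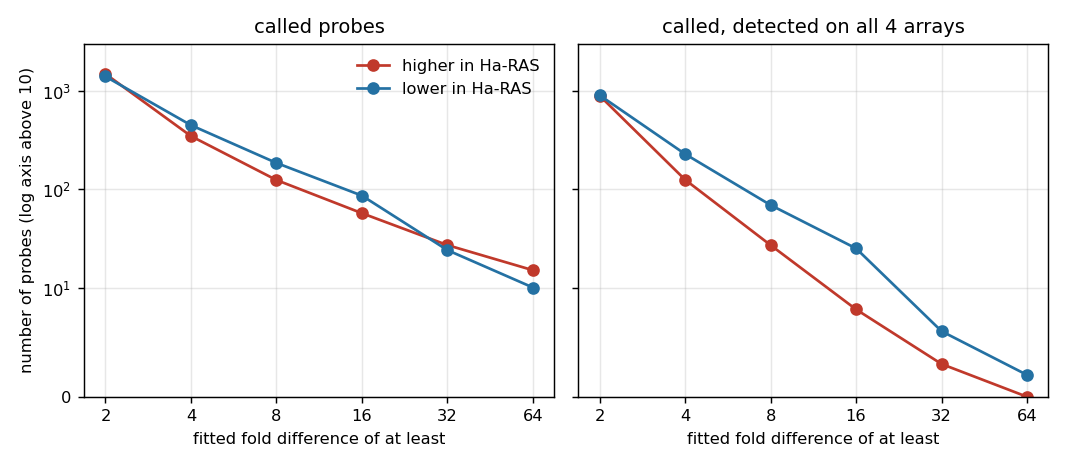
Number of called probes (vertical axis, log scale above 10) at or above each fitted fold difference (horizontal axis) that were higher (red) or lower (blue) in Ha-RAS cells, for all called probes and for those detected on all 4 arrays. At 16-fold the counts are 57 and 86 in the first panel and 8 and 25 in the second.

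Of the 12 probes with the highest differences, 4 are named above and 8 carry an ID alone. On these 12, the Ha-RAS signals ran from 1543 to 9302 and the Ki-RAS signals from 58.3 to 92.6, with no overlap. Control cells had 5 of the 12 undetected on both arrays, 1 detected on 1 array and 6 on both. GI_13027798-S was a clear case of the last kind, with signals of 3359 and 2844 in Ha-RAS, 1450 and 1550.1 in control and 74.6 and 77.2 in Ki-RAS cells, and at least 77.4-fold (37.0 uncorrected) between the RAS lines. GI_34147323-S was of the other kind, with 4746 and 4302 in Ha-RAS cells and no detection in Ki-RAS (81.0 and 79.9) or control cells (69.2 and 74.2), at least 111-fold apart (49.2 uncorrected).

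The 12 lowest probes had Ki-RAS signals of 1369 to 8170.4 and Ha-RAS signals of 57.8 to 224.8. CDH1 was the third lowest, and the other 11 carry an ID alone. GI_21536453-S was the lowest (-7.86 ± 0.19, at least 195-fold, 81.6 uncorrected), with 86.7 and 72.0 in Ha-RAS, 5000.1 and 6701 in Ki-RAS and 2362 and 3850 in control cells. It was thus bright in control and Ki-RAS cells alike, as CDH1 was. GI_19913425-S, at least 131-fold apart (58.6 uncorrected), was instead bright in Ki-RAS cells alone, with 3642 and 4015 against 69.9 and 78.0 in Ha-RAS and 108.5 and 94.7 in control cells. GI_13259551-A was the brightest of the 12, with 8170.4 and 7716 in Ki-RAS cells, and stayed detected in Ha-RAS cells at 224.8 and 215.1, 58.4-fold lower. Control cells detected 9 of the 12 on both arrays and 3 on neither.

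**Figure D4:**
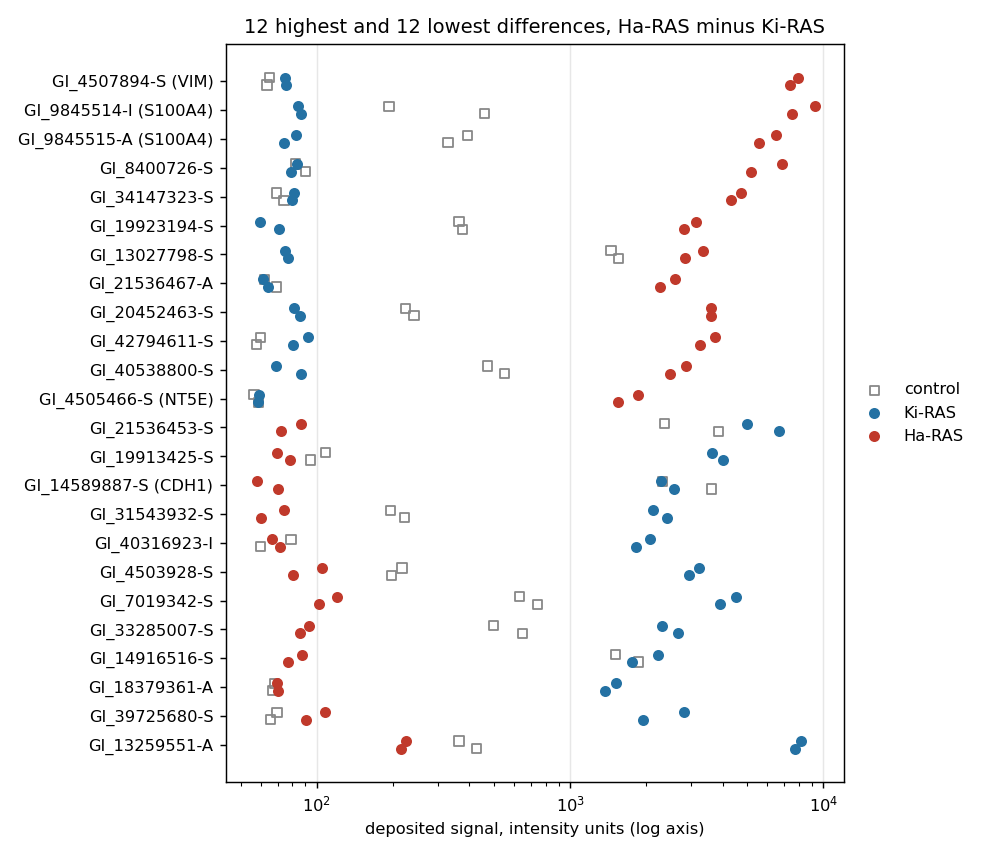
Deposited signal (log axis, intensity units) on each array for the 12 probes with the highest and the 12 with the lowest difference, with Ha-RAS in red, Ki-RAS in blue and control as open squares. The dimmer RAS line lies between 57.8 and 224.8 on all 24 probes, and the control squares lie at the dim end for some probes and near the bright line for others.

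Among probes detected on all 4 arrays, NNMT and GI_25121964-S were highest. GI_25121964-S gave 2840.2 and 2626 in Ha-RAS against 92.6 and 90.9 in Ki-RAS cells, 54.7-fold (25.6 uncorrected). The lowest of this class was GI_7019342-S, with 120.3 and 102.4 against 4501 and 3898, 88.6-fold lower in Ha-RAS cells (44.4 uncorrected). GI_4502112-S, 47.0-fold lower (30.9 uncorrected) with 163.7 and 163.1 against 3710.4 and 4713, had control signals of 161.2 and 200.7, so that Ha-RAS and control signals lay together.

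With all 6 arrays normalized together, control levels could be set beside both lines. Of the 57 probes at least 16-fold higher in Ha-RAS cells, control lay nearer to Ki-RAS for 46 and nearer to Ha-RAS for 11. Of the 86 at least 16-fold lower, control lay nearer to Ha-RAS for 46 and nearer to Ki-RAS for 40. Nearer does not mean alike, as control lay between the lines and over 2-fold from both for 24 of the 57 and 37 of the 86. It was within 2-fold of Ki-RAS for 28 of the 57 and of Ha-RAS for 2. Of the 86 it was within 2-fold of Ha-RAS for 26 and of Ki-RAS for 17. Control was undetected on both arrays for 26 of the 57 and 23 of the 86. The difference between these proportions was not tested.

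Some probes were detected in 1 line alone. Both Ha-RAS arrays and no Ki-RAS array detected 977 probes, and both Ki-RAS arrays and no Ha-RAS array 560. Control cells detected 316 of the 977 and 193 of the 560 on both arrays. Most of these probes were dim, and 16 of the 977 and 9 of the 560 had a mean signal over 1000 in the line that detected them. The Ha-RAS arrays detected more probes in all, as given above, and the part of this in the pattern was not tested.

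The probe suffix tells which transcripts a probe reads, by the manufacturer's convention. Probes for a single transcript (S) were called in 64.1% of 8514 tested, probes for all isoforms of a gene (A) in 65.5% of 1215, and probes for 1 of several isoforms (I) in 60.3% of 617. Of the 372 called I probes, 244 were higher and 128 lower in Ha-RAS cells, 65.6% higher against 52.9% of all calls. The share was 62% with cyclic loess and 77.9% with a common median. The I probes were also dimmer, with a median log2 level of 6.28 against 7.19 for S probes, and the part of the level in this share was not tested. The highest I probe after S100A4 was GI_40788000-I (3.14, 8.80-fold and 4.16 uncorrected, detected on 1 Ki-RAS array, 423.4 and 389.6 against 79.6 and 89.1). The lowest was GI_40316923-I, with 66.3 and 71.3 in Ha-RAS and 2071 and 1824 in Ki-RAS cells, a corrected intensity lower by a factor of at least 65.4 (31.7 uncorrected).

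For 732 sequence records the array held both an A and an I probe, and for 90 of these both were tested. Both probes were called in the same direction for 41 records, 30 higher and 11 lower in Ha-RAS cells. They were called in opposite directions for 2, only 1 of them for 28, and neither for 19. Over all tested probes 64% were called, 33.9% higher and 30.1% lower, and called I probes were more often higher, as given above. The part of these shares in the pair counts was not tested. The differences of 79 pairs lay within 1 log2 unit of each other. Across the 90 pairs, which share their arrays, they correlated at r = 0.74. The widest gap was that of GI_14790166, where the A probe gave 1682 and 1517 in Ha-RAS against 71.1 and 68.3 in Ki-RAS cells and the I probe 158.0 and 114.4 against 70.8 and 77.2, a gap of 4.44 log2 units between their differences. The 2 records with opposite calls were GI_16519563, at -0.85 ± 0.21 for the A and 0.71 ± 0.15 for the I probe, and GI_21536309, at 0.67 ± 0.24 and -0.60 ± 0.13. The A probes of both records were dim, with signals of 80.5 to 143.2, and so was the I probe of GI_21536309, at 133.5 to 154.2. Whether the 2 probes of a record read different transcripts was not tested.

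**Figure D5:**
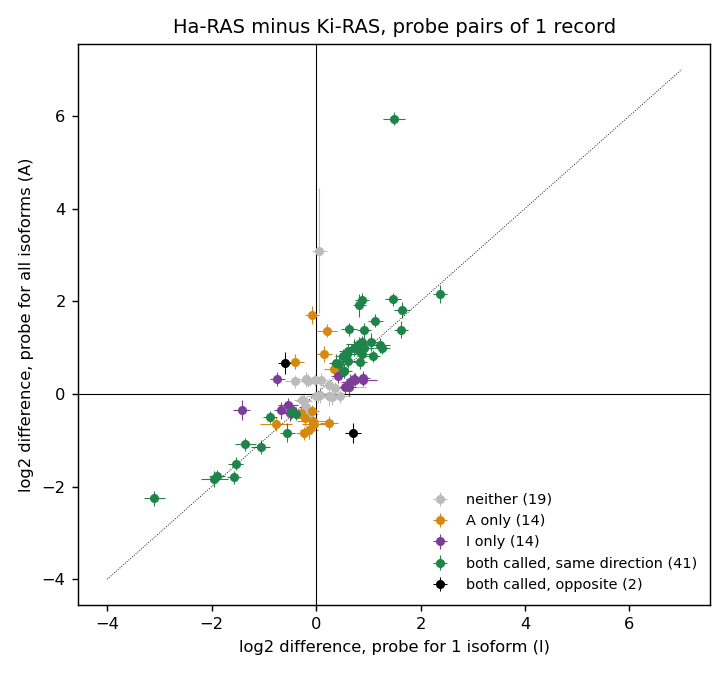
Log2 difference, Ha-RAS minus Ki-RAS, of the A probe (all isoforms, vertical axis) against that of the I probe (1 isoform, horizontal axis) for the 90 records with both tested, with bars of 1 SE and the dotted line of equality. Most of the 41 pairs called the same way lie near the line, and GI_14790166 stands far above it, with an A probe at 5.94.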

How the data were processed

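Biotin-labelled copies of amplified total RNA were measured on bead arrays, per the labels' protocols. Per the file headers, the deposited values are a mean intensity per probe, an intensity spread between beads, a bead count, and a detection score, a fraction that nears 1 as a probe gets brighter. The authors exported them from BeadStudio (version 1.5.13 in the submitters' processing notes) unnormalized, as the design text states. No source used here says if background was subtracted. The series table held the same values (0 differing cells), and 4 bacterial probes, detected on no array, were left out.

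Background was corrected with nec in limma 3.58.1 (R 4.3.3; detection p as 1 minus the score, offset 16), followed by log2 and quantile normalization over the 4 arrays. A model with 2 group means was fitted with lmFit and eBayes (2 residual and 5.26 prior degrees of freedom, two-sided), with Benjamini-Hochberg adjustment over 10346 probes. The offset makes the folds of dim probes smaller, and the number of arrays limits the precision. Alternatives changed the background, the scaling, the detection filter, the spread estimate, the replicate block and the arrays used. The procedure was tested on simulated data in which few probes differed. That test does not cover the normalization where most tested probes differ, as here.

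The named probes are the 12 highest and 12 lowest calls detected on both arrays of the brighter line, 6 and 6 detected on all 4 arrays, 3 and 3 I probes, and the probes of the gene lists, of which 1 is not reported here. The pairs of A and I probes were chosen after their values were seen. Members and lists were chosen with earlier results of these data known.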

Additional observations from a re-analysis of the deposited data

How the results depend on the processing

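The calls kept a similar number under every alternative, from 4929 (without Ha-RAS replicate B) to 7127 (no normalization), with 6437 at most when 1 array was left out. Of 61 called probes among those named, 57 kept their call and direction under every alternative in which they were tested. GAPDH, CAPG (GI_4502560-S), DSP (GI_4758199-S) and DPP4 lost theirs under at least 1. Many of the 61 were named for their extreme differences, so this count does not speak for the other calls. Of all 6624 calls, 5733 kept call and direction with a common median and 5574 without normalization. Probes lower in Ha-RAS cells numbered 2071 without normalization. Called probes at least 2-fold apart numbered 1589 without background correction, 1818 with an offset of 50, 1799 among probes detected on all 4 arrays and 1389 when tested against a 2-fold difference. Those at least 16-fold apart numbered 44, 55 and 33 under the first 3 of these. Fewer probes were tested with detection on all 4 arrays (8121), and for the other settings the cause was not tested. Changes of sign were found for 7 named genes, called neither before nor after. With a common median and without normalization, KRT8 was at 0.15 and 0.20, CTNNA1 at 0.14 and 0.20, ANXA2 at 0.19 and 0.24, S100A11 (GI_5032056-S) at 0.075 and 0.13 and CFL1 at 0.070 and 0.12, and FLNA was at 0.0041 without normalization. With 1 array left out, KRT8 ran from -0.22 to 0.13 (without Ha-RAS replicate B), ANXA2 from -0.13 to 0.060 (positive without Ha-RAS or Ki-RAS replicate B) and FABP5 (GI_4557580-S) from -0.058 (without Ki-RAS replicate B) to 0.32. The replicate letters are not said to pair samples across lines, and deviations of same-letter arrays correlated at -0.18. A replicate block gave 6488 calls, and a crossed block, chosen after seeing the data, 7015. Probes undetected in a line have only bounds after background correction, and the folds of probes near background rest on that correction and its offset.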

Other observations

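The probe for all isoforms of GI_41406065 was the only tested probe to differ by over 2 log2 units between the 2 Ki-RAS samples, and the control samples differed in the same direction. It gave 632.2 and 50.5 on Ki-RAS replicates A and B and 442.1 and 62.6 on control replicates A and B, against 1346 and 884.1 in Ha-RAS cells. The isoform probe of the same record gave 2366 and 2021 in Ki-RAS cells and 1453 and 1640 in control cells. After quantile normalization 44 probes differed by over 1 log2 unit between the Ki-RAS replicates and 3 between the Ha-RAS replicates, and with cyclic loess 17 and 7.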
